A study of Mus musculus with 6 samples.

Results

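The genes described here are the transcriptional coactivators YAP (gene Yap1) and TAZ (gene Wwtr1), the 4 TEAD transcription factors through which they act (Tead1, Tead2, Tead3 and Tead4), and 4 widely used targets of the complex (Ctgf, Cyr61, Amotl2 and Lats2). They were taken by symbol from the deposited count table, which writes Ctgf for the gene now called Ccn2 and Cyr61 for Ccn1. All 10 symbols were found among the 21534 rows, and all 10 passed the filter on low counts that left 13700 genes for testing. The table comes from 6 directional polyA RNA libraries of ileal organoids (closed epithelial cultures grown from intestinal crypts, also called enteroids) from wild-type C57Bl/6 mice. Organoids of both groups had first spent 96 hours in growth medium with 10 µM CHIR99021, a GSK3 inhibitor that activates Wnt signalling and enriches the cultures for stem cells. They were then given DMSO vehicle (3 libraries) or 10 µM all-trans retinoic acid (3 libraries) for 24 hours. The labels do not state whether the libraries of a group came from different mice or cultures, so the p-values cover the spread between these libraries, which may be technical. Both groups therefore carry the CHIR99021 treatment.

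YAP and TAZ are coactivators without a DNA-binding domain of their own. When the kinases of the Hippo pathway are active, LATS1 and LATS2 phosphorylate them and they are kept out of the nucleus or degraded. When the kinases are inactive they enter the nucleus and bind TEAD proteins, which recognise the sequence GGAATG. Among the genes they switch on are 2 inhibitors of the pathway's own output, LATS2 and the angiomotin family protein AMOTL2, which form a negative feedback. In the intestine YAP is best known for driving regeneration after injury, and YAP activity is regulated largely through the location and stability of the protein, which RNA counts do not measure.

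Libraries held between 14919144 and 21833846 reads over genes. The first principal component of the libraries (44.8% of the variance) separated the treatments, and along the second (20.0%) both libraries numbered 3 lay on one side and the remaining 4 on the other. The epithelial markers Epcam, Cdh1, Krt8, Krt18, Vil1 and Cdx2 had a summed level of 6630 to 6733 CPM in vehicle libraries and 6711 to 6935 CPM in retinoic acid libraries, and none of the 6 was called. CPM here are reads per 1000000 after TMM scaling. Of 5 stem cell markers, Lgr5, Olfm4 and Smoc2 were lower with retinoic acid, and Ascl2 and Axin2 were not called. Ctgf and Cyr61 are abundant in connective tissue and vessels, so markers of other cells were examined. The 11 markers of fibroblasts and smooth muscle summed to 5.57 to 6.19 CPM with vehicle and 3.52 to 4.09 CPM with retinoic acid, mostly from Pdgfrb. Col1a1 had 8, 19 and 5 reads with vehicle and 2, 11 and 1 reads with retinoic acid. Pdgfra and Myh11 had at most 7 reads in any library, and Thy1 at most 6. Col1a2, Col3a1, Dcn, Lum, Acta2 and Des had at most 5. The 5 endothelial markers summed to 2.72 to 5.46 and 2.30 to 3.80 CPM, mostly from Pecam1 (9 to 36 reads per library) and Vwf (17 to 40 reads), with at most 19 reads of Tek, 7 of Kdr and 2 of Cdh5. The 6 leukocyte markers summed to 5.95 to 9.06 and 9.45 to 12.1 CPM, with Ptprc at 0 reads in 5 libraries and Cd68, which is not restricted to leukocytes, higher with retinoic acid. The Cd68 call was lost without any 1 of vehicle libraries 1 and 2 or retinoic acid libraries 1 and 2 (adjusted p up to 0.107 in edgeR). The 4 markers of nerve and glia summed to 4.15 to 5.03 and 3.05 to 4.75 CPM.

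To show what a TEAD motif looks like at these genes, the 250 bases before a RefSeq transcription start are given for Cyr61 and Amotl2. These are the 2 target genes whose window held it. The letters searched were GGAATG on either strand, which reads CATTCC on the other strand, and they are in capitals. Sequences are those of RefSeq on GRCm38.p6 (mm10), written 5′ to 3′ on the gene's strand. The Cyr61 window is chr3:145649986-145650235 on the minus strand, and its motif begins 103 bases before the start. The Amotl2 window is chr9:102717554-102717803 on the plus strand, and its motif begins 65 bases before the start. It lies inside the counted span of Amotl2 (102716672 to 102733418), so its start is not the 5′ end of that span.
Cyr61: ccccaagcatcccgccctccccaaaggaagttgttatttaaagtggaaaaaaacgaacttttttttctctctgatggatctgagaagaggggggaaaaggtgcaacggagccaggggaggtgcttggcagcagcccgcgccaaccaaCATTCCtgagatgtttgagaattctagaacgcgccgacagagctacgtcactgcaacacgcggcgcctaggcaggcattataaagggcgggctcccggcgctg
Amotl2: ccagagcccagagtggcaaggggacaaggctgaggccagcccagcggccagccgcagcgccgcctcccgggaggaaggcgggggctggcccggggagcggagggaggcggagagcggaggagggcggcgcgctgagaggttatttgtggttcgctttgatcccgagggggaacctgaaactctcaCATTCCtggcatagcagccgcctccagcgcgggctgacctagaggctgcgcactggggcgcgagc

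The RefSeq table had windows for 7 of the 10 genes (11 windows in all, as some genes have several starts), and none for Ctgf, Tead1 and Tead4. Of these 7, 5 had the motif in at least 1 window: Yap1, Wwtr1, Tead3, Cyr61 and Amotl2. In both windows of Lats2 and in that of Tead2 these letters did not occur. The Lats2 windows (57734419 to 57734668 and 57746124 to 57746373, minus strand) lie inside its counted span. The bases before the 5′ end of that span, at 57758388, were therefore not searched. Across the genome 14.4% of 27025 genes had the motif in at least 1 such window, and 12.6% of 32851 windows held it. A match describes the letters only.

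One of the 10 genes was called, and it was the target Ctgf. Ctgf encodes connective tissue growth factor, a secreted matrix-associated protein, and is among the most used readouts of YAP and TEAD activity (ENSMUSG00000019997, mm10 chromosome 10, 24595442 to 24598683, plus strand). It had 20.1, 18.5 and 16.8 CPM in the vehicle libraries (in the order 1, 2 and 3), and with retinoic acid it had 40.6, 39.9 and 33.7 CPM in the same order. Every retinoic acid library lay above every vehicle library, and within each group library 3 was the lowest. The level went from 18.5 ± 1.67 to 38.1 ± 3.80 CPM (SD, n = 3 in each group), a 2.06-fold rise with a log2 fold change of 1.04 (SE 0.10) and an adjusted p of 1.51e-05 in edgeR's quasi-likelihood test. The 95% interval of the fold was 1.76 to 2.40. In bulk RNA a change in the number of cells that express a gene cannot be told apart from a change in RNA per cell. Over all tested genes 9.46% were called, 5.37% higher and 4.09% lower. Ctgf ranked 75 by p among the 13700 genes, and 121 by size of increase.

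The authors' deposited table lists Ctgf with a log2 fold change of 1.05, a shrunken value of 0.82 and an FDR of 8.5e-15. For the other genes of the set the lowest FDR in the authors' deposited table was 0.447, that of Tead2.

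The Ctgf locus carries a second annotated transcript. Gm15270, an antisense non-coding gene chosen after its values were seen, spans mm10 chromosome 10, 24549441 to 24597108, and its exons overlap those of Ctgf on the opposite strand in GENCODE M21. It had 102, 84 and 70 reads with vehicle and 208, 167 and 200 reads with retinoic acid. It went from 5.16 ± 0.66 to 10.4 ± 0.82 CPM (SD, n = 3), with a log2 fold change of 1.00 (SE 0.15) and an adjusted p of 0.000847 in edgeR's quasi-likelihood test. Per read of Ctgf there were 0.293, 0.268 and 0.275 reads of Gm15270 with vehicle, against 0.240, 0.284 and 0.300 with retinoic acid, so the groups overlapped in this ratio. The libraries are directional, but no source used here says whether the counting used strand. Without strand, reads from the stretch where the exons of the 2 genes overlap cannot be told apart.

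**Figure D1:**
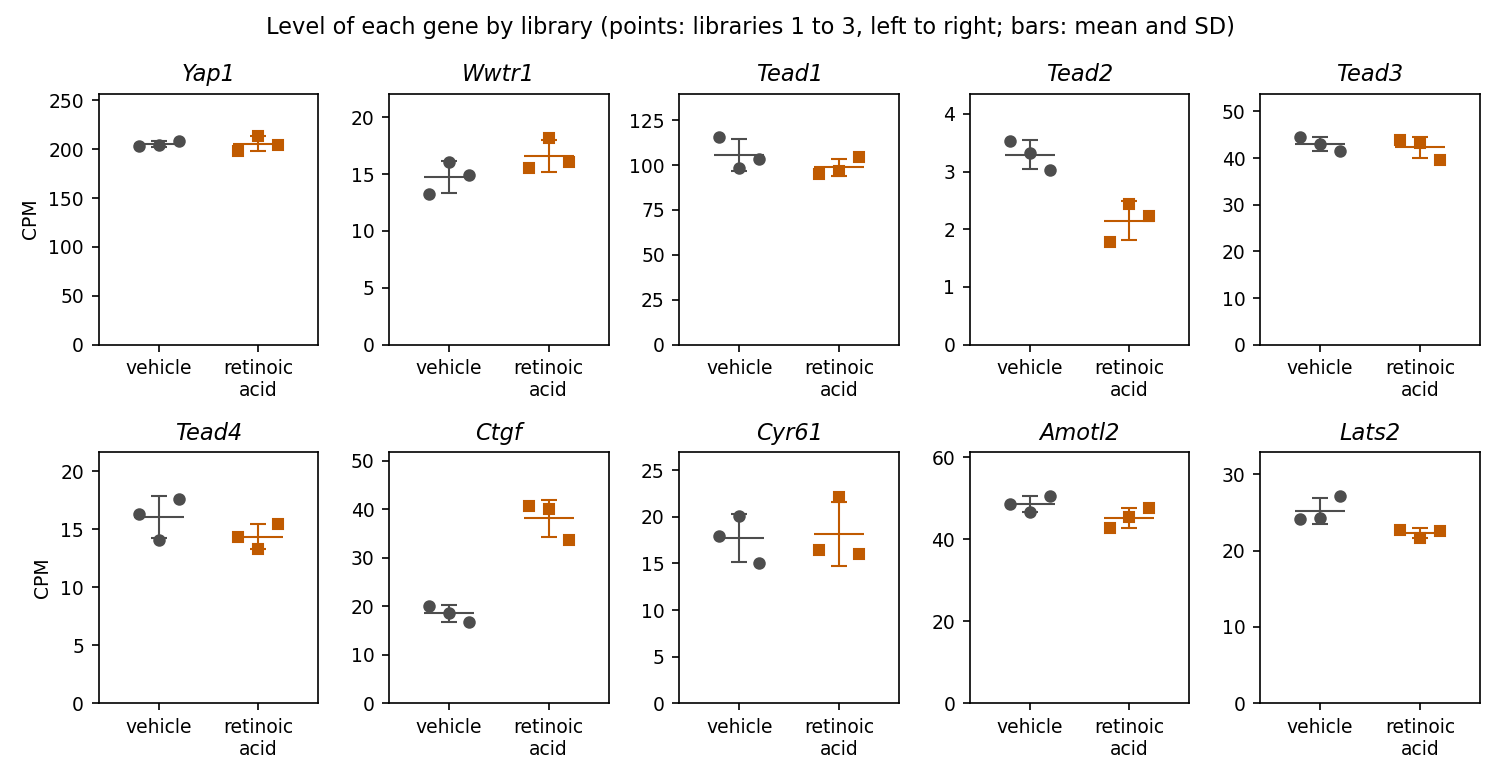
Level of each of the 10 genes in CPM (vertical axis, starting at 0) in the 3 vehicle libraries (grey circles) and the 3 retinoic acid libraries (orange squares), with mean and SD as bars. Ctgf lies at 16.8 to 20.1 CPM with vehicle and 33.7 to 40.6 CPM with retinoic acid, while the groups overlap for every other gene except Tead2 and Lats2, neither of which was called.

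The other 3 targets were not called, and the interval of the fold of each lay wholly below that of Ctgf. Cyr61 encodes CYR61, a matrix-associated protein of the same CCN family as CTGF (ENSMUSG00000028195, mm10 chromosome 3, 145646971 to 145649985, minus strand). It had 18.0, 20.1 and 15.0 CPM with vehicle and 16.4, 22.1 and 16.0 CPM with retinoic acid. The 2 ranges overlapped over most of their width. The log2 fold change was 0.02 (SE 0.14, adjusted p = 0.947 in edgeR), and the 95% interval of the fold, 0.824 to 1.26, does not reach the fold of Ctgf.

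Amotl2 encodes the scaffold that holds YAP at cell junctions (ENSMUSG00000032531, chromosome 9, 102716672 to 102733418). It had 48.7, 46.6 and 50.7 CPM with vehicle and 42.7, 45.4 and 47.6 CPM with retinoic acid. The groups overlapped, and the log2 fold change was −0.11 (SE 0.08, adjusted p = 0.481 in edgeR), with a 95% interval of the fold from 0.828 to 1.04. Lats2, the kinase gene (ENSMUSG00000021959, chromosome 14, 57642077 to 57758388), had 24.1, 24.3 and 27.2 CPM with vehicle and 22.8, 21.6 and 22.5 CPM with retinoic acid. All 3 retinoic acid libraries lay below the vehicle libraries, by a margin smaller than the range of the vehicle group. The log2 fold change of −0.17 (SE 0.09) was not called (adjusted p = 0.308 in edgeR), and the 95% interval of the fold was 0.773 to 1.02. In GENCODE M21 the exons of Gm49361, a gene on the same strand, overlap those of Lats2, so the assignment of reads between them is uncertain. Gm49361 had no row of its own in the deposited counts.

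Because depth and scaling cancel within a library, the divergence of the targets was also read as a ratio of reads, a measure chosen after the values were seen. There were 1.12, 0.921 and 1.12 Ctgf reads per Cyr61 read with vehicle (libraries in order), against 2.47, 1.81 and 2.11 with retinoic acid. The ratio to Amotl2 went from 0.381 ± 0.0434 to 0.847 ± 0.125, and the ratio to Lats2 from 0.738 ± 0.110 to 1.71 ± 0.187 (SD, n = 3). In all 3 ratios every retinoic acid library lay above every vehicle library. The two-sided exact permutation p was 0.1 for each, the smallest that 3 against 3 libraries allow (0.133 adjusted over 4 ratios), so these differences could not pass 0.05.

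**Figure D2:**
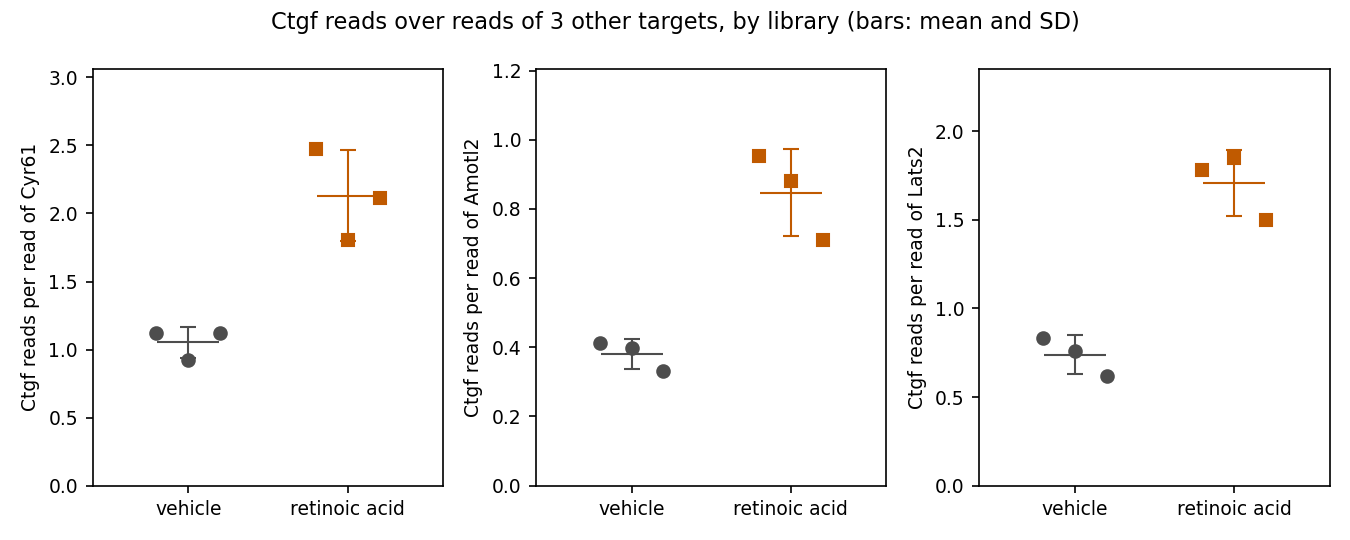
Ctgf reads divided by the reads of Cyr61, Amotl2 and Lats2 in the same library (vertical axes, no unit, starting at 0), for vehicle (grey circles) and retinoic acid (orange squares), with mean and SD as bars. Per Cyr61 read the vehicle libraries hold 0.921 to 1.12 Ctgf reads and the retinoic acid libraries 1.81 to 2.47, and the groups are likewise apart in the other 2 panels.

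Neither coactivator gene was called. Yap1 (ENSMUSG00000053110, chromosome 9, 7931999 to 8004596) had 203.0, 204 and 209 CPM with vehicle and 198, 213 and 205 CPM with retinoic acid. The retinoic acid libraries spanned the whole vehicle range. Its log2 fold change was −0.00051 (SE 0.06, adjusted p = 0.996 in edgeR), and the 95% interval of the fold, 0.919 to 1.09, was the narrowest of the 10 genes. Wwtr1 (ENSMUSG00000027803, chromosome 3, 57455649 to 57575910) had 13.3, 16.0 and 14.9 CPM with vehicle and 15.5, 18.2 and 16.1 CPM with retinoic acid. The groups overlapped, and the log2 fold change of 0.16 (SE 0.12) was not called (adjusted p = 0.476 in edgeR), with a 95% interval of the fold from 0.942 to 1.33. Wwtr1 reads per Yap1 read were 0.0719 ± 0.00652 and 0.0807 ± 0.00388 (SD, n = 3; two-sided exact permutation p = 0.2, adjusted 0.2).

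The 4 TEAD genes encode close paralogs that share the DNA-binding TEA domain. None was called. Tead1 (ENSMUSG00000055320, chromosome 7, 112679318 to 112906807) had 115, 98.4 and 103 CPM with vehicle and 95.1, 96.5 and 104 CPM with retinoic acid. Its groups overlapped (log2 fold change −0.10, SE 0.07). Tead3 (ENSMUSG00000002249, chromosome 17, 28331671 to 28350805) had 44.6, 43.1 and 41.5 CPM with vehicle and 44.0, 43.3 and 39.6 CPM with retinoic acid. Its groups overlapped as well (−0.03, SE 0.08). Tead4 (ENSMUSG00000030353, chromosome 6, 128224288 to 128300823) had 16.4, 14.1 and 17.6 CPM with vehicle and 14.3, 13.3 and 15.5 CPM with retinoic acid (−0.15, SE 0.12), again with overlap. The adjusted p values of Tead1, Tead3 and Tead4 in edgeR were 0.490, 0.891 and 0.525, and the 95% intervals of the fold were 0.838 to 1.04, 0.874 to 1.10 and 0.752 to 1.07.

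Tead2 was the scarcest of the 10 genes and had the largest SE of the log2 fold change among them. Its 95% interval of the fold was 0.452 to 0.929. It is best known as the TEAD of early embryonic tissue (ENSMUSG00000030796, chromosome 7, 45215753 to 45233635). It had 61, 56 and 46 reads with vehicle and 38, 36 and 44 reads with retinoic acid, or 3.53, 3.32 and 3.03 CPM against 1.78, 2.44 and 2.22 CPM. All retinoic acid libraries lay below all vehicle libraries. The log2 fold change was −0.63 (SE 0.24) with an unadjusted p of 0.0217, which did not pass adjustment over all genes (adjusted p = 0.139 in edgeR). Cd37, whose exons overlap those of Tead2 on the opposite strand, had at most 8 reads in any library.

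**Figure D3:**
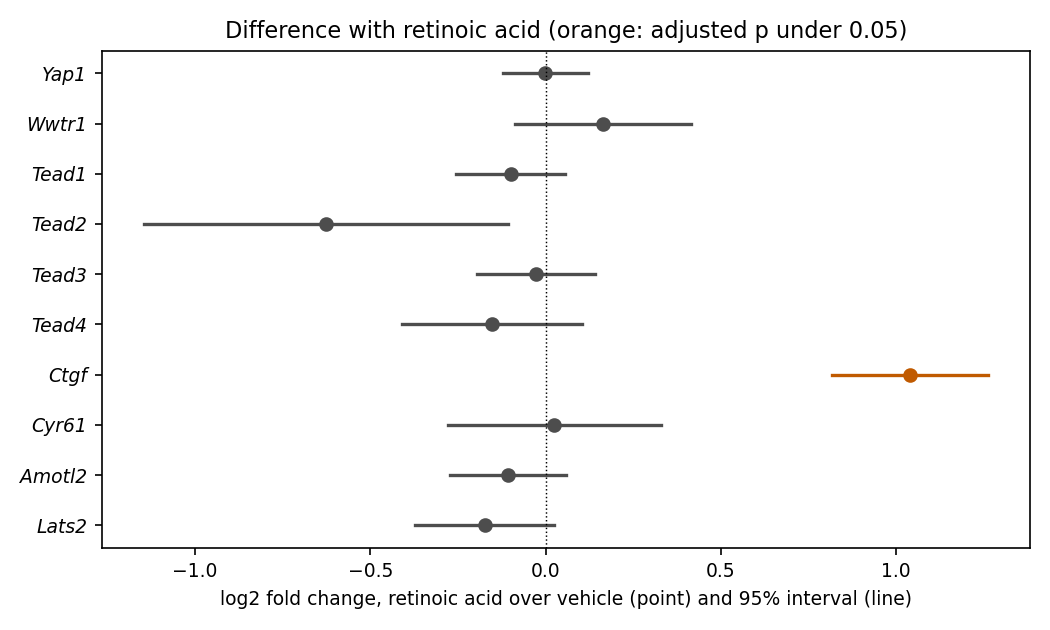
Log2 fold change of retinoic acid over vehicle (horizontal axis, points) with its 95% interval (lines) for the 10 genes, with the called gene in orange. Ctgf alone was called, at 1.04, the Tead2 interval lies below 0 but its adjusted p was 0.139, and the other 8 intervals include 0.

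Counted over the set, 1 of the 10 genes was higher and 0 were lower in edgeR's test, against 5.37% and 4.09% of all tested genes. At an unadjusted p under 0.05 there was 1 higher and 1 lower gene (Ctgf and Tead2), and DESeq2 and limma-voom also called 1 higher and 0 lower. The libraries of the groups did not overlap for 3 of the 10 genes, against 25.5% of all tested genes (12.9% above and 12.6% below). The median log2 fold change was −0.06 over the set and −0.008 over all tested genes. With 10 genes, shares of this size lie near the background.

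Levels can be compared between genes only per length, here as CPM per kilobase of exon using the exon union of GENCODE M21. The models used for counting may differ, and the counted spans of Cyr61, Lats2, Tead2 and Tead3 were not those of M21. For Lats2 the counted span began at 57642077 and that of M21 at 57689662, so its level per kilobase is uncertain. With vehicle the order was Yap1 at 49.2 ± 0.71, Tead3 at 14.0 ± 0.50, Amotl2 at 10.9 ± 0.46, Tead1 at 10.5 ± 0.87, Cyr61 at 8.77 ± 1.28, Ctgf at 6.66 ± 0.60, Tead4 at 4.47 ± 0.50, Lats2 at 3.90 ± 0.26, Wwtr1 at 3.09 ± 0.29 and Tead2 at 0.940 ± 0.0715 CPM per kilobase (SD, n = 3). Neighbours whose libraries overlapped were Amotl2 and Tead1, Tead1 and Cyr61, and Tead4 and Lats2. Yap1 stood 15.9 times above Wwtr1, its paralog. With retinoic acid Ctgf reached 13.7 ± 1.37 CPM per kilobase, which overlapped Tead3 (13.7 ± 0.76) and lay above every library of Amotl2, Tead1 and Cyr61. Apart from this move of Ctgf and a change of places between Lats2 (3.45 ± 0.0942) and Wwtr1 (3.47 ± 0.293), whose libraries then overlapped, the order of the means was the same in both groups.

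**Figure D4:**
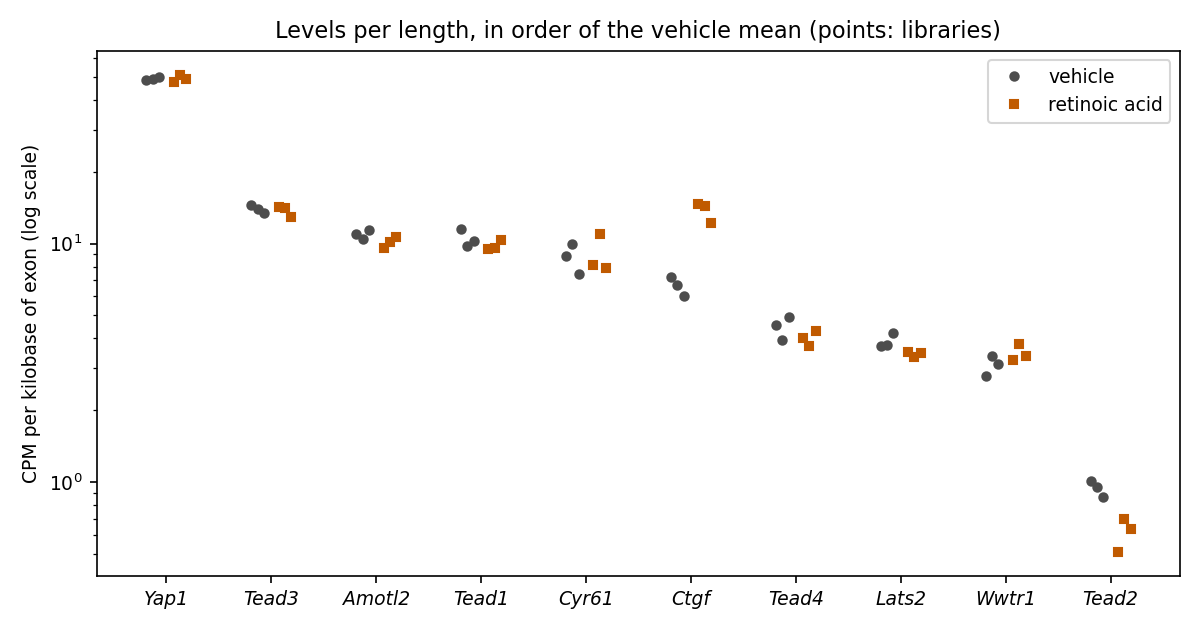
CPM per kilobase of exon (vertical log axis) of the 10 genes in order of the vehicle mean, with 1 point per library (vehicle in grey, retinoic acid in orange). Yap1 lies near 49.2 in both groups, Ctgf moves from 6.66 to 13.7, and Tead2 is the lowest in both.

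The make-up of the TEAD family was compared as the share of all TEAD reads in a library. Tead1 held 62.8 ± 1.17% with vehicle and 62.6 ± 1.70% with retinoic acid, Tead3 25.7 ± 1.25% and 26.9 ± 2.07%, Tead4 9.54 ± 0.98% and 9.12 ± 0.52%, and Tead2 1.96 ± 0.13% and 1.36 ± 0.21% (SD, n = 3). Only for Tead2 did the libraries of the groups not overlap. The two-sided exact permutation p was 0.9, 0.4, 0.7 and 0.1 in that order, where 0.1 is the smallest possible, and 0.4 for Tead2 after adjustment over the 4 shares. Per kilobase of exon Tead3 rather than Tead1 held the largest share, with 46.8 ± 1.74% against 35.1 ± 1.16% in vehicle libraries.

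The kinase cascade and scaffolds above YAP were followed through a list of 50 Hippo pathway genes, of which 47 were in the table and 44 were tested. Of these, 2 were higher and 2 lower, and the median log2 fold change was 0.0004. Over all tested genes 5.37% were higher and 4.09% lower, with a median of −0.008. Stk25, a kinase of the STRIPAK complex, rose 1.28-fold (log2 fold change 0.36, SE 0.06, adjusted p = 0.00169 in edgeR). Rassf1, a scaffold that binds the MST kinases, rose 1.17-fold (adjusted p = 0.0409 in edgeR), a call that was lost without any 1 of vehicle libraries 1, 2 and 3 or retinoic acid libraries 1 and 2 (adjusted p up to 0.176). Wtip, a LIM protein of the family that restrains LATS kinases, fell (log2 fold change −0.54, SE 0.10, adjusted p = 0.00400 in edgeR) from 26.0 ± 2.90 to 17.9 ± 0.22 CPM (SD, n = 3). Stk38l, a kinase related to LATS, fell by 0.39 (SE 0.08, adjusted p = 0.00556 in edgeR). The higher members numbered 1 without any 1 of those 5 libraries. Over all tested genes 443 to 550 were higher in those fits, against 736 in the main fit.

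The core of the cascade, named here for its role after the values were seen, was not called. The MST kinase genes Stk3 and Stk4 had log2 fold changes of 0.24 (adjusted p = 0.120 in edgeR) and 0.002, their scaffold gene Sav1 0.02, the second LATS kinase gene Lats1 −0.06, its cofactor genes Mob1a and Mob1b 0.06 and 0.002, and the upstream tumour suppressor gene Nf2 −0.02. The level of Stk3 was 27.3 ± 2.16 CPM in the vehicle group against 32.3 ± 1.12 CPM after retinoic acid (SD, n = 3), without overlap. Amot, which like Amotl2 binds YAP, had 144 ± 10.5 and 125 ± 6.81 CPM, also without overlap. It did not pass either (adjusted p = 0.0890 in edgeR).

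A list of 30 further YAP and TEAD targets, chosen from other tissues and cell lines and sharing 6 genes with the pathway list (0 of them called), had 26 tested members. Of these 2 were higher and 4 lower (5.37% and 4.09% of all tested genes), with a median log2 fold change of −0.05. Igfbp3, a binding protein of insulin-like growth factors, went from 3.77 ± 1.31 to 7.16 ± 0.17 CPM (SD, n = 3), 1.88-fold (adjusted p = 0.0178 in edgeR). Asap1, a GTPase-activating protein for ARF, rose 1.40-fold (adjusted p = 0.0159 in edgeR). Birc5, the gene of survivin and itself a mitotic gene, fell by 0.57 on the log2 scale (SE 0.12, adjusted p = 0.00699 in edgeR). The others to fall were Arhgef17 (by 0.46), Thbs1 (by 0.31), which encodes a matrix glycoprotein, and Crim1 (by 0.26), which encodes a transmembrane BMP-binding protein.

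Of these 6, only Birc5 passed in every fit that left out 1 library (largest adjusted p = 0.0435 in edgeR). Leaving out any single vehicle library reduced the higher members to 1, leaving out retinoic acid library 1 or 2 reduced them to 0, and leaving out retinoic acid library 3 raised them to 5. The lower members became 2 when vehicle library 1, vehicle library 3 or retinoic acid library 1 was dropped, and 1 when library 2 of either group was dropped. Ankrd1, often paired with Ctgf and Cyr61 as a YAP readout, did not pass the test (adjusted p = 0.898 in edgeR), at 2.12 ± 0.72 CPM against 2.00 ± 0.33 CPM (SD, n = 3). It was named for this role after its value was seen, and Axl, another such target, was too scarce to be tested.

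The third list held 18 genes linked to regenerating, fetal-like or YAP-active gut epithelium, of which 16 were tested. Here 6 were higher and 1 lower (5.37% and 4.09% of all tested genes), and the median log2 fold change was 0.24, against −0.008 over all tested genes. The list was chosen with earlier results of these data known, so these counts are a description and no test of enrichment. The EGF family ligand genes Areg and Ereg rose 1.57-fold and 1.45-fold (adjusted p = 3.37e-06 and 0.000367 in edgeR). Il1rn, the interleukin-1 receptor antagonist, rose 1.74-fold from 158 ± 38.2 to 275 ± 23.7 CPM (SD, n = 3), and the claudin gene Cldn4 rose 1.34-fold. The surface marker gene Ly6a (Sca-1) rose 1.35-fold, and Clu, the clusterin gene that marks revival stem cells, rose 1.32-fold. Clu was named after its value was seen, and its call was lost without retinoic acid library 1 (adjusted p = 0.0512). Anxa1 was the member that fell (log2 fold change −0.48, SE 0.10). Msln, the mesothelin gene, named after its value was seen, was not called (adjusted p = 0.314 in edgeR). These genes answer to several pathways.

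**Figure D5:**
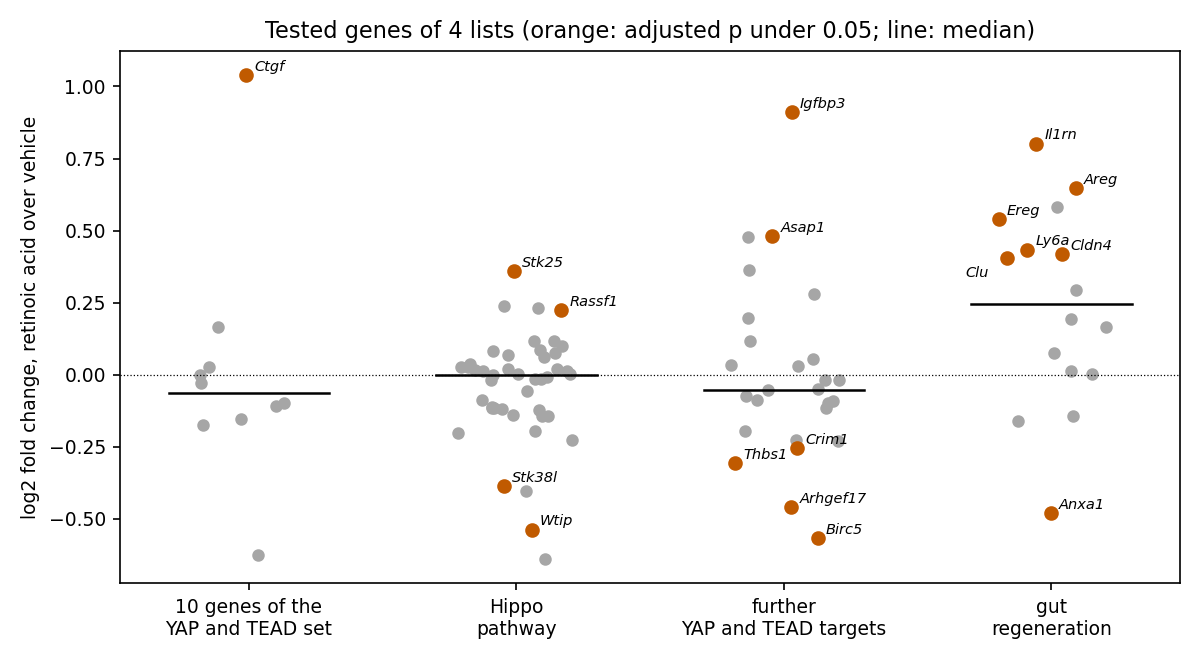
Log2 fold change of retinoic acid over vehicle (vertical axis) for each tested gene of the 10-gene set, the Hippo pathway list (44), the further targets (26) and the gut regeneration list (16), with called genes in orange and named, and the median as a line. The medians are −0.06, 0.0004, −0.05 and 0.24, and Ctgf is the highest point of all 4 lists.

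Genes whose profile over the 6 libraries was most like that of Ctgf were found by the root mean square difference of log2 CPM, each gene centred on its own mean, among named genes with at least 10 CPM on average. The 2 nearest were Gfpt1, the first enzyme of the hexosamine pathway (difference 0.048), and Hbegf, an EGF family ligand (difference 0.049). Gfpt1 had 894, 839 and 769 CPM with vehicle and 1991, 1818 and 1593 CPM with retinoic acid. Hbegf had 45.2, 42.2 and 40.7 CPM with vehicle and 96.9, 87.7 and 78.7 CPM with retinoic acid. They were picked for their likeness over these same libraries, so the shared pattern is a description. For Cyr61 the 2 nearest were Zfand1 (difference 0.0577), at 14.5 to 19.9 CPM, and Stoml2 (difference 0.0579), at 10.1 to 13.6 CPM over the 6 libraries, neither of which was called (adjusted p = 0.897 and 0.925 in edgeR).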

How the data were processed

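The deposited table holds a raw read count per gene for each of 6 libraries, with the p-value, FDR and log2 fold change that the authors obtained under a heading of DESeq statistics, per the file headers. The submitters' processing notes name mm10 as the build. Not given in the sources used here: aligner, annotation, use of strand, treatment of reads with several matches. Columns were matched to samples by title. Replicates differed by more than sampling noise (chi-square of 3.43 to 8.60 per row), so each library counted once.

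Counts of all rows were fitted in edgeR 4.0.16 (R 4.3.3): filterByExpr (13700 genes), TMM, glmQLFit and glmQLFTest with treatment as the only term, two-sided, Benjamini-Hochberg adjustment over all genes tested, threshold 0.05. The SE is the log2 fold change divided by the square root of F. The steps were tested on simulated counts. List symbols absent from the table were sought through the current symbol of each gene ID (21102 of 21534 IDs matched). Exon lengths came from GENCODE M21, and promoters from RefSeq.

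Named genes are the 10 of the set, up to 6 called genes with the smallest p from each list, and 2 genes most like Ctgf and Cyr61. The genes and lists were chosen with earlier results of these data known. Alternatives were DESeq2 size factors, 2 other filters, DESeq2 1.42.0, limma-voom 3.58.1, a replicate block, and fits without each library or without library 3 of both groups.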

Additional observations from a re-analysis of the deposited data

How the results depend on the processing

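Ctgf stayed called and higher in all 13 alternative fits (log2 fold change 0.98 to 1.12, adjusted p at most 0.000395), and the other 9 genes of the set stayed uncalled in the same 13 fits, with Tead2 at −0.72 to −0.50 (adjusted p 0.104 to 0.421). Yap1, Tead3 and Cyr61, all near 0, took either sign. The log2 change of the Ctgf to Cyr61 ratio was 0.90 to 1.12 with 1 library left out, an alternative added after the data were seen.

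With 1 library left out, the number of called genes ranged from 443 to 978 higher and 289 to 787 lower, Hippo pathway genes from 1 to 2 higher, and further targets from 0 to 5 higher and from 1 to 3 lower. With no filter on low counts 5 further targets were higher, and over all genes 968 of 21534 were. Without library 3 of both groups 5 further targets were higher, 4 Hippo pathway genes were lower, and 2 gut regeneration genes were lower. In that fit 922 of all 13807 tested genes were higher and 734 lower. The main fit had 736 higher and 560 lower of 13700. The cause of these moves was not tested.

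Replicate numbers were not taken as pairs in the main fit, since the labels give no pairing or batch. The deviations of same-numbered libraries from their group means correlated at 0.128, 0.0975 and 0.257 over genes for numbers 1, 2 and 3. Every library correlated best with its own number, and libraries of unlike number correlated at −0.169 to 0.0602. An effect shared by libraries of the same number may therefore be present, and its source was not tested. The fit with the replicate block called 1224 genes higher and 1052 lower, with 4 Hippo pathway genes and 4 further targets higher, and Ctgf at 1.04 (adjusted p = 1.39e-07). Low counts limit the precision of Tead2, which had 36 to 61 reads per library.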
